A study of Homo sapiens with 4 samples.

Results

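The canonical clustered and linker histone genes were followed in KYSE410, an established cell line grown from a human esophageal squamous carcinoma. The members were every probe set whose annotation gave exactly 1 gene symbol and whose symbol followed the pattern of the linker genes (H1-1, H1-2 and so on) or of the clustered core genes H2AC, H2BC, H3C and H4C. There were 53 such probe sets for 45 genes, among 54613 probe sets on the array besides controls, and all 53 matched, by gene ID, a RefSeq gene of the same symbol. Of the 45 genes, 40 lie on chromosome 6, 2 each on chromosomes 1 and 3, and 1 on chromosome 12. RefSeq lists 73 genes of these names, and those without a probe set of a single symbol were not analysed here as members. Total RNA had been labelled for Affymetrix 3' expression arrays, and the groups were 2 arrays of cells given 20 nM YM155 for 6 h and 2 arrays of untreated cells. YM155 is a small-molecule drug known for lowering survivin, an inhibitor of apoptosis. All 4 arrays come from this 1 line. The protocol text speaks of cisplatin and the design text of both drugs, but the treated arrays' own treatment labels and source names give YM155, and these were used. Nothing in the labels says that the replicates were separate cultures, so p-values measure only how far these arrays lie apart, and that spread may be technical.

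Histones H2A, H2B, H3 and H4 form the protein core around which DNA is wrapped in a nucleosome, and H1 binds the linker DNA between nucleosomes. The genes of the large clusters are transcribed mainly while DNA is copied in S phase. Their usual mRNA ends in a stem-loop in place of a poly(A) tail, and the stem-loop binding protein SLBP carries it through processing and translation. The labelling kit named in the labels primes copying from poly(A) tails, so the usual stem-loop form is copied poorly and the signals here need not follow the total histone mRNA. Some members, such as H2BC21, H2BC5, H2AC6 and H1-2, are known to give polyadenylated transcripts as well, and H1-10 is a linker gene outside the clusters. H1-6, H1-7, H1-8 and H2BC1 are known mainly from germ cells.

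The arrays themselves differed in a way that touches every result below. Over the 32768 probe sets above the filter on dim signals, a 2-fold or larger gap separated the 2 YM155 arrays at 56 and the 2 untreated arrays at 1690. For histone probe sets the same counts were 0 for the YM155 pair and 5 for the untreated pair. Markers of the labelled cell type were bright. Of 10 squamous epithelial markers listed, KRT17, KRT6A and TP63 had no probe set of a single symbol. All 7 analysed (DSG3, EPCAM, JUP, KRT14, KRT5, PKP1 and SFN) lay above the 80th percentile of signal. Their summed linear signal was 16217 and 16571 in YM155 arrays, against 10752 and 12619 in untreated arrays. No marker of fibroblasts (4 of 8 above the filter), leukocytes (3 of 6) or endothelium (3 of 7) reached that percentile. Their summed linear signals were low: 154 and 172 in YM155 arrays against 173 and 158 in untreated arrays for fibroblasts, 76.5 and 76.7 against 74.9 and 75.3 for leukocytes, and 96.4 and 98.2 against 102 and 92.2 for endothelium. The part of the squamous markers' difference in the histone values was not tested. Bulk RNA cannot tell fewer cells in S phase from less histone RNA per cell.

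Of the 53 histone probe sets, 32 (29 genes) had a mean log2 intensity over the 4 arrays above 3.32, the 40th percentile of all probe sets, and 21 lay below it. The nearest to this limit were H1-8 (mean 3.48) and H1-7 (3.43) just inside, and H2BC13 (3.28) and H1-6 (3.18) just outside. By limma, 0 of the 32 were called at an adjusted p under 0.05, where 0% of all 32768 probe sets were called. Adjusted p ranged from 0.333 to 0.991 over the histone probe sets. At an unadjusted p under 0.05, 3 were lower in YM155 arrays (H2AC17, H2BC11 and H4C9; 6.06% of all probe sets) and 1 was higher (H4C8; 5.03% of all). The difference, YM155 mean minus untreated mean, was negative at 23 of 32 histone probe sets, where 52.8% of all probe sets were negative. Both YM155 arrays lay below both untreated arrays at 11 histone probe sets (23.9% of all probe sets) and above them at 3 (19.4% of all). The median difference was -0.14 log2 over the 32 and -0.02 log2 over all 32768. No member therefore passed the test across all features, and what follows describes values.

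**Figure D1:**
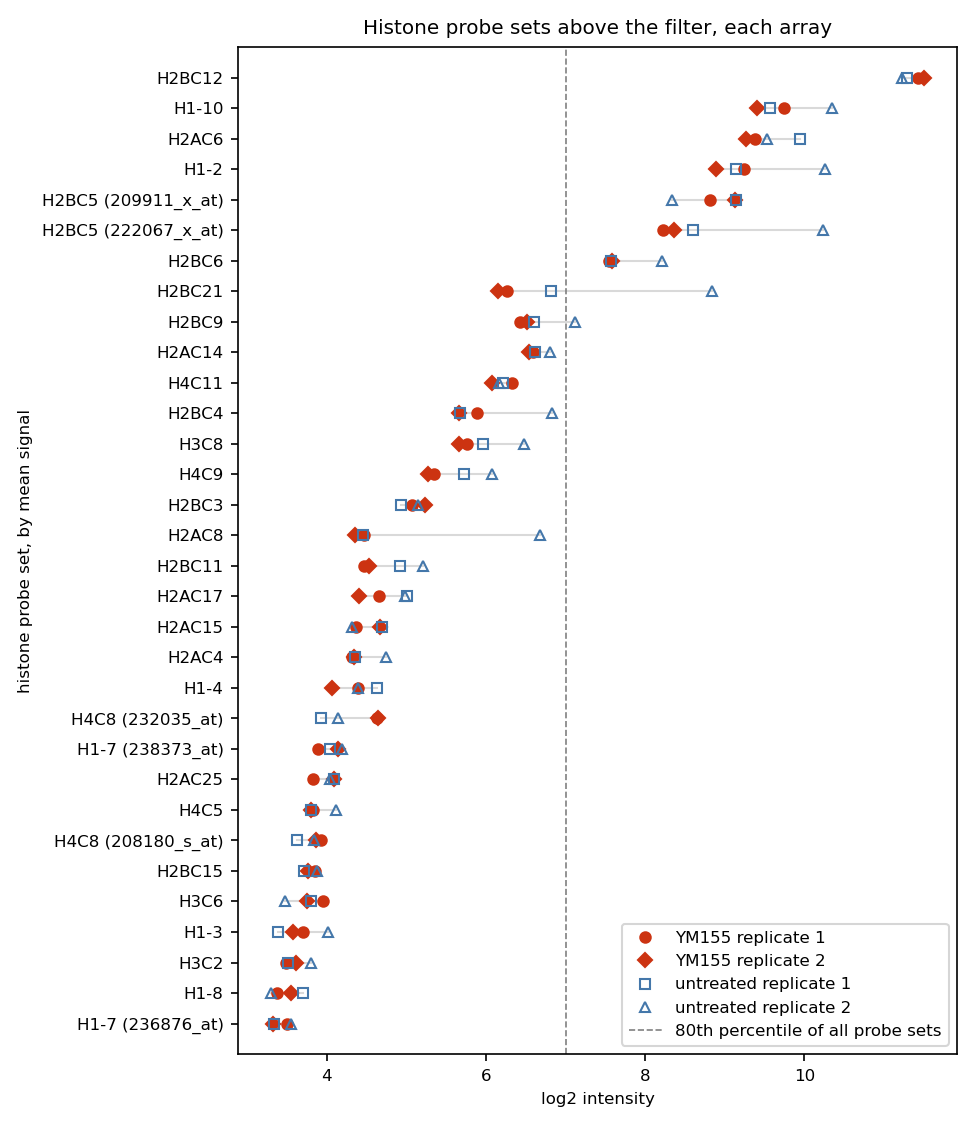
Log2 intensity of the 32 histone probe sets above the filter (one row each, ordered by mean signal) on the 2 YM155 arrays (filled red) and the 2 untreated arrays (open blue). Untreated replicate 2 was the highest of the 4 arrays in 19 rows, and the dashed line at 7.0 marks the 80th percentile of all probe sets.

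The result turned on which untreated array was set beside the drug. Against untreated replicate 1 the YM155 mean was lower at 21 of 32 histone probe sets (55.0% of all probe sets) with a median of -0.04 log2. Against untreated replicate 2 it was lower at 24 (50.9% of all) with a median of -0.24 log2. It was at least 2-fold below untreated replicate 2 at 5 histone probe sets, those of H2BC21, H1-2, H2AC8, H2BC5 and H2BC4, where 3.15% of all probe sets were. It was at least 2-fold below untreated replicate 1 at 0 (0.964% of all). No histone probe set was 2-fold above either untreated array, where 1.17% of all were above replicate 1 and 2.47% above replicate 2. The YM155 mean lay within 0.25 log2 of untreated replicate 1 at 22 histone probe sets (62.0% of all probe sets) and within 0.25 log2 of untreated replicate 2 at 13 (52.1% of all).

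The untreated arrays also lay further apart than the YM155 arrays, at histone probe sets and over all probe sets. The median absolute gap over the 32 was 0.13 log2 between the YM155 arrays and 0.34 log2 between the untreated arrays, where over all 32768 it was 0.14 and 0.24 log2. Untreated replicate 2 exceeded replicate 1 at 22 of 32 histone probe sets, where 48.6% of all probe sets had that order. It was at least 2-fold higher at the same 5 probe sets as above, where 2.57% of all were. At 19 of 32 it was the highest of the 4 arrays, where 31.7% of all were. The median signal of the 32 probe sets was 4.64 and 4.65 log2 in YM155 replicates 1 and 2, against 4.93 and 5.18 log2 in untreated replicates 1 and 2. These medians of single arrays lie further apart than the median differences taken within probe sets, -0.04 log2 from untreated replicate 1 and -0.24 from replicate 2. Over all 32768 probe sets the medians were 5.84 and 5.80 log2 in YM155 arrays, against 5.88 and 5.85 log2 in untreated arrays. The source of the histone difference was not tested.

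**Figure D2:**
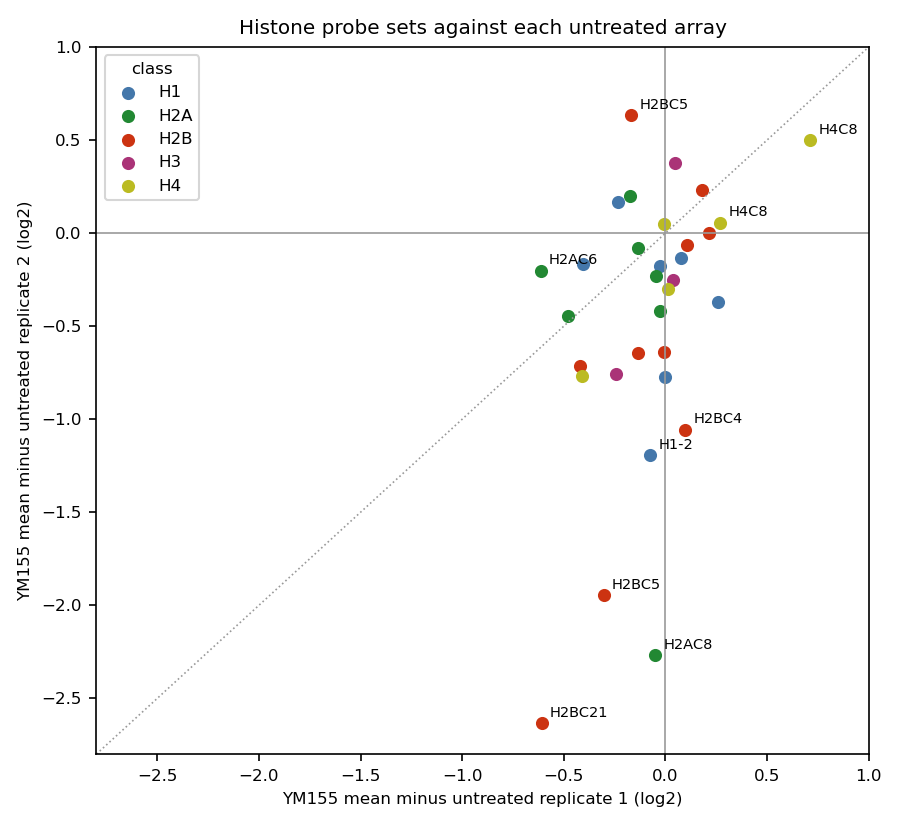
Each point is a histone probe set above the filter, with the YM155 mean minus untreated replicate 1 on the x axis and minus untreated replicate 2 on the y axis (log2), coloured by histone class. Points on the dotted diagonal would give the same value from both; H2BC21 (-0.61 and -2.64), H2AC8 (-0.05 and -2.27), 1 of the H2BC5 probe sets (-0.30 and -1.95) and H1-2 (-0.08 and -1.19) lie far below it.

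H2BC21, a core histone H2B gene on chromosome 1, had the most negative difference. Its probe set read 6.27 and 6.15 log2 in YM155 arrays, against 6.81 and 8.84 log2 in untreated arrays. Both YM155 arrays were below both untreated arrays, and the widest gap, 2.03 log2, lay between the untreated arrays. The difference was -1.62 ± 0.68 log2 (SE, n = 2 per group; limma adjusted p = 0.48), with -0.61 relative to untreated replicate 1 and -2.64 relative to replicate 2. H2AC8, an H2A gene, read 4.47 and 4.36 log2 in YM155 arrays, against 4.46 and 6.68 log2 in untreated arrays. Only untreated replicate 2 stood apart here, and untreated replicate 1 lay between the YM155 arrays, so the groups overlapped (difference -1.16 ± 0.74 SE, limma adjusted p = 0.617). H1-2, the linker histone gene H1.2, read 9.24 and 8.88 log2 in YM155 arrays, against 9.14 and 10.3 log2 in untreated arrays, with the same arrangement (-0.63 ± 0.40 SE, limma adjusted p = 0.618). H2BC4 did likewise, with 5.89 and 5.66 log2 in YM155 arrays, against 5.68 and 6.83 log2 in untreated arrays.

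The promoters of H2BC21, H2AC8 and H1-2 are shown because these genes had the lowest YM155 values relative to untreated replicate 2 in their classes, and that of H2BC12 because this gene stood on the other side. Each line gives the 215 bases before the gene's start, 5' to 3', from RefSeq (GRCh38.p14): H2BC21 at chr1:149886683-149886897 (minus strand), H2AC8 at chr6:26216706-26216920 (plus strand), H1-2 at chr6:26056471-26056685 (minus strand) and H2BC12 at chr6:27146859-27147073 (minus strand). None of these windows overlaps a RefSeq gene. Capitals mark matches on either strand to the octamer ATTTGCAT, the CCAAT box CCAAT, the TATA box TATAAA and the AC box AAACACA, and no motif contains another.
H2BC21: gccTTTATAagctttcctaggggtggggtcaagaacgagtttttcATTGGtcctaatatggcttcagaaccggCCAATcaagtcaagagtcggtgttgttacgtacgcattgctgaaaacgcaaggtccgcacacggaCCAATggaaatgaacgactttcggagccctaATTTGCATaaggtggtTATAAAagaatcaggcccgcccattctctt
H2AC8: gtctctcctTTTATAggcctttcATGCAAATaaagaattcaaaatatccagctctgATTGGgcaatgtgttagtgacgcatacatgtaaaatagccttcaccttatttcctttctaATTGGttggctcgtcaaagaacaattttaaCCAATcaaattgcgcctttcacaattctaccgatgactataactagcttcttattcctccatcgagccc
H1-2: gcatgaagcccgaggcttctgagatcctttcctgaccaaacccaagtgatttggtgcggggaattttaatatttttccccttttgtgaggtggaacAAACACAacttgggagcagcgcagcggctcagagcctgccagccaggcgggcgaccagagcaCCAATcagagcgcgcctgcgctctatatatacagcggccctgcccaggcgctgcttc
H2BC12: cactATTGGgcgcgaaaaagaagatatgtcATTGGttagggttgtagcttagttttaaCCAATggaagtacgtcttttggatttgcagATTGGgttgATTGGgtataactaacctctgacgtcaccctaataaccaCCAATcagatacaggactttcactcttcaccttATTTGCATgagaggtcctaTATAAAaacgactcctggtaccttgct
In H2BC21 and H2BC12 the octamer begins 46 bases before the start, and a TATA box begins 30 and 27 bases before it. In H2AC8 the octamer and the TATA box are on the opposite strand, beginning 192 and 206 bases before the start. H1-2 holds no octamer in this window and has an AC box 119 bases before the start.

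These motifs differed between the histone classes. The octamer, which binds the factor OCT1, was found in the 250 bases before the start in 73.3% of 15 H2B windows and 75% of 8 H2A windows, in 0 of 10 H1, 7 H3 and 7 H4 windows, and in 1.63% of all 35116 RefSeq windows. The CCAAT box, which binds the NF-Y complex, was in 85.1% of the 47 histone windows and 32% of all. The TATA box was in 63.8% of the histone windows and 10.7% of all, and the AC box of linker histone genes in 70% of H1 windows and 4.82% of all. These windows cover 43 of the 45 genes, with 2 windows each for H1-8, H2BC12, H2BC5 and H3C6. Matches were counted on either strand, and windows of neighbouring genes can overlap. The H2AC6 and H2BC4 windows hold the same octamer site, as do those of H2AC14 and H2BC14 and of H2AC17 and H2BC17. Sites are thus fewer than windows, and the H2A and H2B shares are not independent. Among the 32 probe sets above the filter, the 12 of genes with an octamer had a median difference of -0.40 log2, and the 20 of genes without one had -0.08 log2. From untreated replicate 1 the medians were -0.05 and -0.02 log2, and from untreated replicate 2 they were -0.54 and -0.15 log2. A lower median was not particular to the octamer. With a TATA box the median difference was -0.29 log2 (19 probe sets) and without one -0.10 (13). With a CCAAT box it was -0.22 (27) and without one 0.02 (5). With an AC box it was -0.10 (5) and without one -0.15 (27). All 12 probe sets of genes with an octamer belong to H2A or H2B genes. The 20 without one include every H1, H3 and H4 probe set above the filter. The rest of the 20 are H2A or H2B probe sets, with differences of 0.23 and -1.13 log2 (H2BC5), -0.11 (H2AC25), 0.01 (H2AC15) and 0.02 (H2BC15). Octamer and histone class are thus largely confounded here, and their parts were not tested. H2BC21, lowest of all, and H2BC12, which stood higher, both carry the octamer close to their TATA box.

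**Figure D3:**
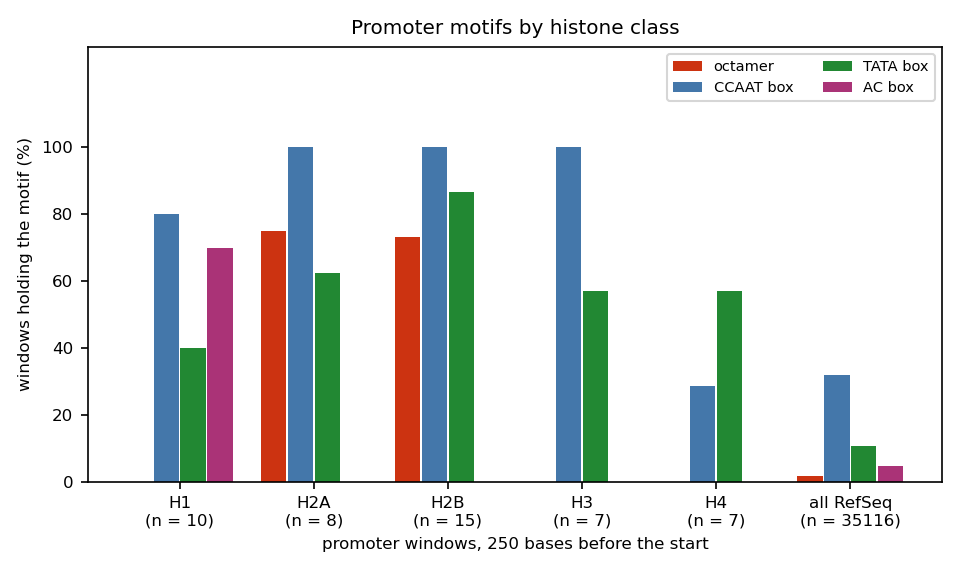
Percentage of promoter windows (250 bases before the start) that hold each of 4 motifs on either strand, for the member genes of each histone class and for all RefSeq windows; n is the number of windows. The octamer is in 75% of H2A and 73.3% of H2B windows and in 0 of the H1, H3 and H4 windows.

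Among H2B genes, 10 probe sets of 9 genes lay above the filter, 6 with negative and 4 with positive differences, and their median was -0.36 log2 (-0.07 from untreated replicate 1 and -0.64 from replicate 2). H2BC12 had the brightest histone probe set and a narrow spread. It read 11.4 and 11.5 log2 in YM155 arrays, against 11.3 and 11.2 log2 in untreated arrays. The groups did not overlap, yet the gap was small (0.21 ± 0.13 log2 SE, limma adjusted p = 0.625). The 2 probe sets of H2BC5 disagreed. One read 8.22 and 8.36 log2 in YM155 arrays, against 8.60 and 10.2 log2 in untreated arrays (difference -1.13 ± 0.55 SE, limma adjusted p = 0.534). The other read 8.82 and 9.13 log2 in YM155 arrays, against 9.14 and 8.34 log2 in untreated arrays (difference 0.23 ± 0.31 SE, limma adjusted p = 0.822). Untreated replicate 2 was thus the highest array in one and the lowest in the other, and both carry the suffix of probes that may bind related transcripts, so H2BC5 has no settled direction. In RefSeq an antisense gene, H2BC6-AS1, also overlaps H2BC5.

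H2BC6 read 7.55 and 7.59 log2 in YM155 arrays, against 7.58 and 8.21 log2 in untreated arrays (-0.32 ± 0.24 SE, limma adjusted p = 0.674). Again untreated replicate 1 lay between the YM155 arrays. H2BC11 differed from both untreated arrays: it read 4.46 and 4.53 log2 in YM155 arrays, against 4.92 and 5.22 log2 in untreated arrays (-0.57 ± 0.16 SE, limma adjusted p = 0.368). H2BC9 also stood lower without overlap, by -0.13 log2 from untreated replicate 1 and -0.65 from replicate 2. H2BC3 and H2BC15 had differences of 0.11 and 0.02 log2.

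All 7 H2A genes above the filter had YM155 means below untreated replicate 1 (55.0% of all probe sets). Below untreated replicate 2 were 6 of 7 (50.9% of all), and the median difference was -0.22 log2. H2AC6 read 9.38 and 9.27 log2 in YM155 arrays, against 9.94 and 9.53 log2 in untreated arrays. The groups did not overlap, and here untreated replicate 1 was the higher of its pair (-0.41 ± 0.19 SE, limma adjusted p = 0.515). H2AC17 read 4.66 and 4.41 log2 in YM155 arrays, against 5.01 and 4.98 log2 in untreated arrays (-0.46 ± 0.15 SE, limma adjusted p = 0.409). Both untreated arrays gave much the same gap for H2AC17, -0.48 log2 from replicate 1 and -0.45 log2 from replicate 2. H2AC14 and H2AC4 had differences of -0.14 and -0.22 log2 without overlap, but mostly through untreated replicate 2. H2AC14 was at -0.04 from untreated replicate 1 and -0.23 from replicate 2, and H2AC4 at -0.03 and -0.42. H2AC25 and H2AC15 had differences of -0.11 and 0.01 log2.

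All 7 H1 probe sets above the filter (6 genes) had negative differences (52.8% of all probe sets), with a median of -0.10 log2. Of the 7, 1 was lower without overlap (23.9% of all probe sets). H1-10 read 9.74 and 9.40 log2 in YM155 arrays, against 9.57 and 10.3 log2 in untreated arrays (-0.39 ± 0.30 SE, limma adjusted p = 0.687), and the difference from untreated replicate 1 alone was -0.00072 log2. An antisense gene overlaps H1-10 in RefSeq, and whether the probe set tells the strands apart was not tested. H1-4 read 4.39 and 4.06 log2 in YM155 arrays, against 4.63 and 4.40 log2 in untreated arrays (-0.29 ± 0.19 SE, limma adjusted p = 0.624). The higher YM155 array and the lower untreated array of H1-4 nearly touched. H1-3 (-0.06 log2), H1-8 (-0.03) and the 2 probe sets of H1-7 (-0.10 and -0.03) lay close to the filter and to 0.

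H4C8 was the member with the largest positive difference. Its brighter probe set read 4.63 and 4.64 log2 in YM155 arrays, against 3.92 and 4.14 log2 in untreated arrays. The gap exceeded the spread within both groups (0.61 ± 0.15 SE), yet the limma adjusted p was 0.333, and it was 0.71 from untreated replicate 1 and 0.50 from replicate 2. Its other probe set read 3.93 and 3.87 log2 in YM155 arrays, against 3.63 and 3.84 log2 in untreated arrays, a difference of 0.16 log2. H4C9 went the other way, with 5.35 and 5.28 log2 in YM155 arrays, against 5.72 and 6.08 log2 in untreated arrays (-0.59 ± 0.18 SE, limma adjusted p = 0.381). In RefSeq, H4C9 lies within the span of H2BC12, whose own probe set stood higher. H4C11 and H4C5 had differences of 0.02 and -0.15 log2, so the 5 H4 probe sets above the filter had both signs (median 0.02 log2).

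The filter left 3 H3 probe sets. H3C8 read 5.77 and 5.67 log2 in YM155 arrays, against 5.96 and 6.47 log2 in untreated arrays (-0.50 ± 0.21 SE, limma adjusted p = 0.492). H3C6 read 3.96 and 3.75 log2 in YM155 arrays, against 3.81 and 3.48 log2 in untreated arrays, with overlap (0.21 ± 0.18 SE, limma adjusted p = 0.716), and H3C2 had a difference of -0.11 log2. Over the classes, the median difference was -0.10 log2 for H1 (7 probe sets), -0.22 for H2A (7), -0.36 for H2B (10), -0.11 for H3 (3) and 0.02 for H4 (5). From untreated replicate 1 the class medians lay between -0.13 for H2A and 0.04 for H3. From untreated replicate 2 they lay between -0.64 for H2B and 0.05 for H4. No test was made between classes, whose members share sequence.

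In median, bright histone probe sets stood lower after YM155 than dim ones. The 8 bright probe sets, above the 80th percentile of all signals, had a median difference of -0.40 log2, where all 10923 bright probe sets had -0.02. They belong to 7 genes, and 6 of the 8 were negative, where 5742 of all 10923 bright probe sets were. The 24 probe sets between the 40th and the 80th percentile had a median of -0.11 log2, and the 21 dim ones -0.01 log2 with differences from -0.16 to 0.20 log2. Of the dim probe sets 11 were negative and 10 positive. Brightness also reflects the probes, so it gives no ranking of transcript abundance, and a dim probe set may carry mostly background. Across the 32 probe sets above the filter, mean signal and difference had a Pearson correlation of -0.27 and a Spearman correlation of -0.39, and across all 53 these were -0.41 and -0.43, a description over probe sets that share arrays and sequence. By untreated array, the bright median was -0.12 from replicate 1 and -0.71 from replicate 2, and the dim median 0.05 and -0.06. Brightness was the mean over the same arrays that gave the difference, so a high untreated array raised the mean and lowered the difference. The contrast of bright with dim and the correlations are thus partly built in, and that part was not tested. H2BC21 had a mean of 7.02 log2, just above the bright limit of 7.0, and only its untreated replicate 2 (8.84 log2) exceeded that limit.

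**Figure D4:**
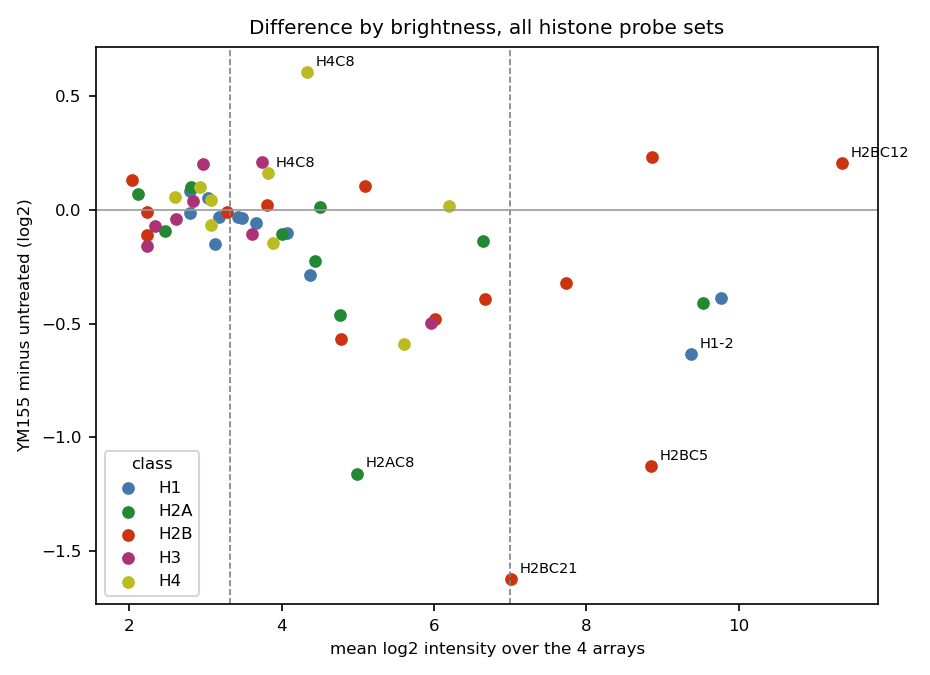
YM155 minus untreated (log2, means of 2 arrays each) against mean log2 intensity for all 53 histone probe sets, coloured by class; dashed lines mark the 40th and 80th percentiles of all probe sets (3.32 and 7.0). Differences of the 21 dim probe sets stay between -0.16 and 0.20, and those of brighter ones run from -1.62 to 0.61.

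Probe sets annotated with several histone genes at once name no single member, and they were read only as a comparison chosen after their values were seen. There were 20, of which 17 lay above the filter. These carry only 8 distinct annotations, so several read the same genes. Differences were negative at 15 of the 17, where 52.8% of all probe sets were negative. Their median was -0.43 log2, with -0.04 from untreated replicate 1 and -0.78 from replicate 2. The brightest of the probe sets shared by H2AC18 and H2AC19 read 9.55 and 9.66 log2 in YM155 arrays, against 9.44 and 12.1 log2 in untreated arrays. Its untreated replicate 2 stood more than 2 log2 above the other 3 arrays, as it did for 2 other probe sets, of these genes and of 5 H2B genes. Shared H3 probe sets had another arrangement. One annotated with 10 H3 genes read 5.18 and 4.97 log2 in YM155 arrays, against 5.93 and 6.69 log2 in untreated arrays, and another annotated with the same 10 H3 genes and H2AC7 read 3.66 and 4.02 log2 in YM155 arrays, against 4.99 and 4.88 log2 in untreated arrays. These H3 values were lower than both untreated arrays, by -0.85 and -1.62 log2 for the first and -1.15 and -1.05 log2 for the other. The brightest shared probe set, annotated with 14 H4 genes, read 12.8 and 12.7 log2 in YM155 arrays, against 12.8 and 12.7 log2 in untreated arrays.

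Of the genes in 4 lists around the histones, 0 passed the adjusted threshold in either direction. How their medians compared with the histone median turned on the untreated array. Relative to untreated replicate 1 the list medians ran from -0.13 to -0.06 log2, further from 0 than the histone median of -0.04. Relative to untreated replicate 2 they ran from -0.15 to 0.09 log2, nearer to 0 than the histone median of -0.24. Over all genes above the filter, with 1 probe set per gene as in the lists, the medians were -0.05 and 0.01 log2. Of these 14043 genes, 7429 had a negative difference and 6612 a positive one. Of 34 genes for transcription and processing of histone mRNA, 32 had a probe set of a single symbol, and POU2F1 and WDR33 had none. All 32 lay above the filter, 19 with negative and 13 with positive differences (median -0.01 log2, -0.09 from untreated replicate 1 and 0.09 from replicate 2). The stem-loop binding protein gene SLBP read 9.53 and 9.42 log2 in YM155 arrays, against 8.99 and 9.42 log2 in untreated arrays. NPAT, the coactivator of histone transcription at histone locus bodies, had a difference of 0.06 log2, and CASP8AP2, which encodes the processing factor FLASH, -0.08. The 4 largest differences of this list were those of CCNE2, TUT4, CCNE1 and ZNF473. CCNE2 (1.42 ± 0.24 SE, limma adjusted p = 0.255) and CCNE1 (0.59 ± 0.15, adjusted p = 0.346) are the cyclin E genes, whose kinase partner CDK2 phosphorylates NPAT. TUT4, a terminal uridylyltransferase, stood at -0.62 (-0.90 from untreated replicate 1 and -0.34 from replicate 2). ZNF473, a zinc finger protein of histone pre-mRNA processing, stood at 0.44 (0.25 and 0.63). CCNE2 read 7.73 and 8.33 log2 in YM155 arrays, against 6.63 and 6.59 log2 in untreated arrays, so that both YM155 arrays were above both untreated arrays.

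The mRNAs of variant histones carry poly(A) tails in most cases and are made outside S phase too. Of 16 variant genes listed, 9 had a probe set of a single symbol, and H3-3B was among those without. Above the filter lay 8 genes, 5 negative and 3 positive (median -0.12 log2). CENPA, the centromeric H3 variant, read 8.16 and 7.78 log2 in YM155 arrays, against 8.71 and 9.06 log2 in untreated arrays (-0.91 ± 0.21 SE, limma adjusted p = 0.326). H2AJ stood at -0.45 and MACROH2A2 at -0.18, while H2AX, the variant phosphorylated at DNA breaks, stood at 0.31 with no overlap of the arrays. Among 32 histone chaperone and related genes above the filter, 23 were negative and 9 positive (median -0.09 log2, -0.13 from untreated replicate 1 and -0.01 from replicate 2). HJURP, the chaperone of CENPA, read 7.60 and 7.72 log2 in YM155 arrays, against 8.06 and 9.60 log2 in untreated arrays. Its difference of -1.17 ± 0.52 log2 (SE, limma adjusted p = 0.503) was -0.40 from untreated replicate 1 and -1.94 from replicate 2. RBBP4 stood at -0.44 (-0.27 from replicate 1 and -0.61 from replicate 2) and the histone import factor gene IPO4 at 0.34 (0.03 and 0.65), while the H3.3 chaperone gene DAXX stood at -0.34 with much the same value from both (-0.35 and -0.33). Of 48 S phase genes above the filter, 27 were negative and 21 positive (median -0.02 log2, -0.08 from untreated replicate 1 and 0.05 from replicate 2). The largest differences there were those of RFC4 (-0.63), MCM10 (0.59), CCNA2 (-0.51) and PRIM1 (-0.45). For RFC4 both untreated arrays gave a negative value, -0.56 from replicate 1 and -0.70 from replicate 2. CCNA2 was at 0.02 from replicate 1 and -1.03 from replicate 2, so its sign turned on the array. MCM10 was at 0.20 and 0.98, and PRIM1 at -0.88 and -0.03. Untreated replicate 2 minus replicate 1 had a median of -0.13 log2 for S phase genes, counted with 1 probe set per gene, where all genes above the filter had -0.04. For histone probe sets above the filter, not reduced to 1 per gene, it was 0.21 log2, where all probe sets had -0.01.

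**Figure D5:**
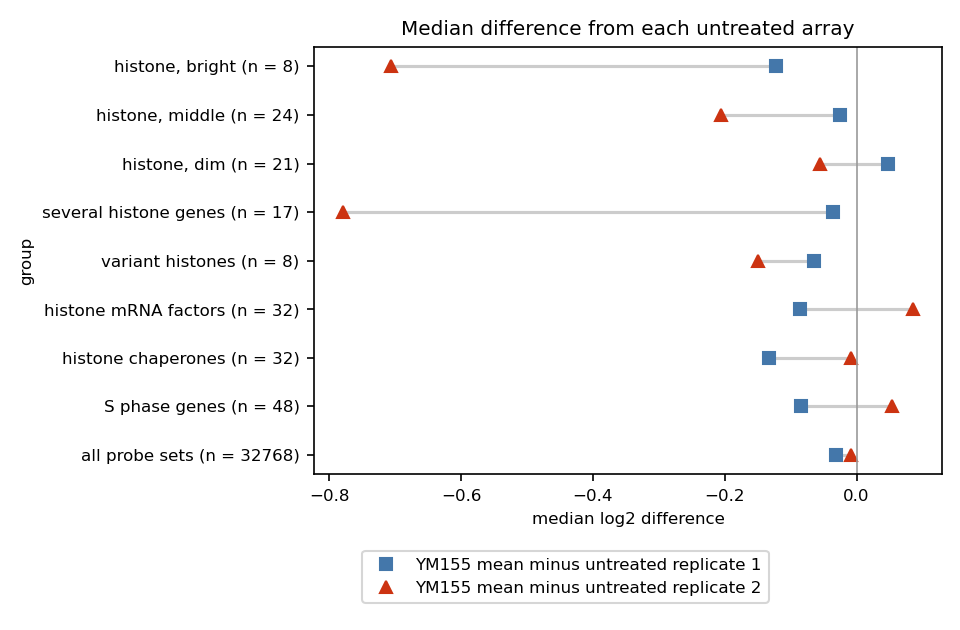
Median log2 difference of the YM155 mean from untreated replicate 1 (blue squares) and from untreated replicate 2 (red triangles) for each group; n counts probe sets (for the 4 gene lists, 1 per gene). Bright histone probe sets run from -0.12 to -0.71 and S phase genes from -0.08 to 0.05.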

How the data were processed

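The 4 arrays were grouped by their titles and treatment labels. The deposited intensity of each probe set came from RMA (robust multi-array averaging), per the submitters' processing notes, with its version not given in the sources used here. The deposited intensity values ran from 2.42 to 15214, a linear scale, so log2 was taken. RMA brings arrays close to a common distribution, so a shift shared by all genes is not measured (array medians 16.0 to 16.2). After 62 control probe sets, 54613 were left. Symbols came from the platform annotation (41091 probe sets with 1 symbol, 1801 with several, 11721 with none). The filter at the 40th percentile of mean log2 kept 32768.

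YM155 was compared with untreated by limma 3.58.1 in R 4.3.3 (lmFit, eBayes, two-sided, Benjamini-Hochberg over 32768 probe sets), and the script was tested on simulated data. The number of arrays limits the precision: 2 residual degrees of freedom, plus 2.69 from the prior. The members and lists were chosen with earlier results of these data known. Genes named were those in the bright class, the 4 largest differences each way, H1 genes, genes with several probe sets above the filter and 4 per list, with SLBP, NPAT and CASP8AP2; further members are named after their values were seen. SLBP is in 2 lists. Promoter sequences are RefSeq's (GRCh38.p14).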

Additional observations from a re-analysis of the deposited data

How the results depend on the processing

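The counts of 0 probe sets called in either direction, and of 0 histone probe sets called, also held with no filter, a filter at the 60th percentile, 1 probe set per gene, without probe sets of the _x_at or _s_at suffix, quantile normalization repeated, median centring, eBayes with trend and robust, the replicate number as a block, and each array left out in turn. The smallest adjusted p over these settings was 0.0633, without untreated replicate 1. At an unadjusted p under 0.05, 1647 probe sets were higher and 1986 lower. One combination, chosen after the data were seen, made calls: with 1 probe set per gene and without untreated replicate 1, 604 of 14043 genes were higher (4.30%) and 521 lower (3.71%), the lower ones with 5 of 29 histone genes (H2BC21, H2AC8, H2BC4, H4C9 and H3C8, limma adjusted p 0.0407 to 0.0499). That fit sets YM155 against untreated replicate 2 alone, whose own spread is then taken from the YM155 pair. The median over histone probe sets above the filter, -0.14 log2, was -0.40 with the filter at the 60th percentile, which leaves 16 of the 32. That limit, 4.85 log2, applies to the mean of the same 4 arrays that gave the difference. H2AC8 passed it only through its high untreated replicate 2. The lower median may thus be partly built in, and that part was not tested. Leaving out each array in turn gave a median of -0.24 to -0.04. Of the 32 histone probe sets, 19 kept 1 sign over the 4 arrays left out, 15 of them negative. The share over all probe sets was not computed, so this count is not read as particular to histones. A probe set whose groups do not overlap keeps its sign in any case. That held for 11 lower and 3 higher histone probe sets (23.9% and 19.4% of all probe sets). The replicate numbers did not pair the samples (correlation of same-numbered deviations -0.03), and with the replicate block the median was -0.14 log2 and 0 probe sets were called in either direction. H1-3 turned positive without YM155 replicate 2 (0.0081) or untreated replicate 2 (0.26), and H1-7 without YM155 replicate 1 (0.020). H1-8 turned positive without YM155 replicate 1 (0.05) or untreated replicate 1 (0.17). H2BC5 turned negative without untreated replicate 2 (-0.17). The values were the same at 1 probe set per gene, and the cause was not tested. Genes with several probe sets are given here by the brightest. The other H2BC5 probe set stayed negative, at -1.95 to -0.30. Further members also changed sign, such as H2BC4 (-1.06 to 0.10). Leaving out each array gave -0.37 to 0.26 for H1-3, -0.22 to 0.020 for H1-7, -0.23 to 0.17 for H1-8, -0.17 to 0.63 for H2BC5, -2.64 to -0.61 for H2BC21, -2.27 to -0.05 for H2AC8 and 0.50 to 0.71 for H4C8. Scanner detection calls were not used here, so signal over background is known only through the filter, and the 21 dim histone probe sets had a test only in the fit with no filter.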
